A study of Oryza sativa with 3 samples.

Results

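Fragments of the glycine tRNAs with the anticodons TCC and CCC were examined in small RNA libraries of male gametophytes of Oryza sativa (rice, cultivar Guichao No.2) grown in the field. There was 1 library each of uninucleate microspores (UNM), the haploid spores before their first mitosis, of bicellular pollen (BCP), in which the vegetative cell encloses a generative cell, and of tricellular pollen (TCP), in which that generative cell has divided into the sperm cells. The members are the sequences labelled TCC or CCC in the 3 deposited lists of tRNA-derived fragments, 891 distinct sequences of 18424, of which 499 are labelled TCC and 392 CCC. The UNM list held 293 of them, the BCP list 783 and the TCP list 365. The lists give reads per sequence for BCP (4958412 reads in all) and UNM (686685 reads), and TCP was used only for which sequences it lists. A share is a percentage of a list's reads unless another base is named. The intervals in parentheses are exact 95% intervals that cover counting error only, and reads of one sequence may be copies of one molecule. No stage has a second library, so no difference between stages has a replicate check. A share also cannot tell more of one fragment from less of the others, and fewer cells of a type cannot be told apart from less RNA per cell.

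As background, tRNAs with the anticodon TCC read the glycine codons GGA and GGG, and those with CCC read GGG. A tRNA folds into the acceptor stem, which joins both ends, the D arm, the anticodon arm and the T arm. Cleavage in the D loop leaves short 5′ fragments, and cleavage in the anticodon loop leaves long 5′ and 3′ fragments. In Arabidopsis, RNases of the T2 family cut tRNAs, and short 5′ fragments are known to accumulate in pollen.

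The TCC fragments came from 3 sequence variants of the tRNA, which are told apart by the bases at positions 5 and 6, numbering the mature tRNA from its 5′ end as 1. A long 5′ fragment of each variant is printed 5′ to 3′ to show where they differ, with bases 5 and 6 and the anticodon at bases 34 to 36 in capitals. They are called CT, TT and TC after bases 5 and 6.
CT variant, 40 nt: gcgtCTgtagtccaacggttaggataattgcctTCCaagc
TT variant, 40 nt: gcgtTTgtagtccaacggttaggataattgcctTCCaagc
TC variant, 36 nt: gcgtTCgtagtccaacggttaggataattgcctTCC
Overlapping members joined each 5′ end to a 3′ end of its own, from which a 34-nt piece starting at base 39 is printed with bases 66 and 67 in capitals.
CT variant, 3′ piece: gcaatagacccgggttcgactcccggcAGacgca
TT variant, 3′ piece: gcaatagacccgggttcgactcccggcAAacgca
TC variant, 3′ piece: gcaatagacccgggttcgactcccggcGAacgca
Relative to CT, the TT variant has the substitutions C5T and G67A, and the TC variant has C5T, T6C, A66G and G67A. Bases 5 and 67 face each other in the acceptor stem, as do bases 6 and 66, so each substitution on the 5′ side stands opposite one that keeps the base pair. The join used this pairing to choose the 3′ end of each variant, so the pairing is not an independent finding. The joined tRNAs are 72 bases long, the annotated length of all 10 genes for this anticodon in RefSeq (rice assembly ASM3414082v1). The deposited label matched the joined tRNAs, which hold these 3 bases at positions 34 to 36, after a T and before an A.

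The total share of TCC fragments was close in both stages. They held 6.68% of BCP reads (6.66 to 6.70) and 6.10% of UNM reads (6.04 to 6.15), 331114 and 41873 reads, a ratio of 1.095 (1.08 to 1.11). CCC fragments held 0.0988% of BCP reads (0.0960 to 0.102) and 0.0814% of UNM reads (0.0748 to 0.0884), 4897 and 559 reads, a ratio of 1.21 (1.11 to 1.33). TCC reads outnumbered CCC reads 67.6-fold in BCP and 74.9-fold in UNM, while RefSeq annotates 10 genes for TCC and 8 for CCC. Within tRNA-Gly the balance differed between the stages, as fragments with the anticodon GCC were 9.03-fold higher in BCP (8.57 to 9.52). Of the tRNA-Gly reads, TCC took 77.02% in BCP and 95.4% in UNM, so on that base the log2 ratio of BCP over UNM was -0.31 for TCC and -0.16 for CCC, against 0.13 and 0.28 over all reads. With tRNA-Asp fragments left out of the total it was 0.76 for TCC and 0.91 for CCC.

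Beneath this near-equal total, the lengths of the TCC fragments differed between the stages. Fragments of at most 20 nt made up 13.5% of TCC reads in BCP (13.3 to 13.6) and 80.8% in UNM (80.5 to 81.2). Fragments of 21 to 29 nt made up 39.8% in BCP (39.7 to 40.01) and 2.56% in UNM (2.41 to 2.72), and those of at least 30 nt 46.7% in BCP (46.5 to 46.9) and 16.6% in UNM (16.2 to 16.96). A shift to longer reads was also seen in the listed fragments outside TCC and CCC. Among these, fragments of at most 20 nt held 43.3% of reads in BCP and 94.2% in UNM. Those of at least 30 nt held 51.1% and 3.20%, 16.0-fold higher in BCP, against 2.81-fold for TCC. The TCC value includes reads of 35 nt, 0.248% of TCC reads in BCP and 8.47% in UNM. BCP does not list the CT and TT fragments of that length, as described below. With only sequences of at most 33 nt, those of at least 30 nt held 37.4% of TCC reads in BCP and 6.97% in UNM. That cutoff was not applied to the other fragments. In BCP the leading length was 26 nt with 35.3% of TCC reads, followed by 32 nt with 18.9%, 34 nt with 14.6% and 33 nt with 9.07%. In UNM it was 18 nt with 49.7%, followed by 19 nt with 11.9%, 17 nt with 11.5% and 35 nt with 8.47%. Of the listed fragments outside TCC and CCC, the class of 21 to 29 nt held 5.60% in BCP (5.58 to 5.62), below its share of TCC reads, and 2.57% in UNM (2.53 to 2.61), which could not be told from the TCC value. GCC fragments were also above these others in this class, with 21.6% of GCC reads in BCP (21.4 to 21.9) and 33.6% in UNM (31.2 to 36.1), the UNM value far above that of TCC. Of all 26-nt reads in the lists, TCC fragments held 81.6% in BCP (81.4 to 81.8) and 54.0% in UNM (50.8 to 57.2). Of the GCC fragments, 0.812% of reads were 26 nt long in BCP and 0.347% in UNM, and their leading length was 31 nt in BCP (26.3%) and 22 nt in UNM (22.8%).

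Nearly all of these reads formed nested series, that is, fragments with the same first base and stepwise later ends. Fragments that start at base 1 held 97.3% of TCC reads in BCP and 98.4% in UNM. The steps of the CT series that carry most reads are printed with the last base in capitals.
Fragment of 18 nt, CT series: gcgtctgtagtccaacgG
Fragment of 19 nt, CT series: gcgtctgtagtccaacggT
Fragment of 26 nt, CT series: gcgtctgtagtccaacggttaggatA
Fragment of 32 nt, CT series: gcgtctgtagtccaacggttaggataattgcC
Fragment of 34 nt, CT series: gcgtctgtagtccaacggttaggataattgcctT
Fragment of 35 nt, CT series: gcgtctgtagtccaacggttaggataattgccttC
The 18-nt step ends on the second G of the GG at bases 17 and 18 in the D loop. The 26-nt step ends 1 base past the D stem, whose last base is 25. The steps of 32 and 33 nt end just before the anticodon, and those of 34 and 35 nt end inside it.

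The short D-loop step was lower in BCP in all 3 series. Over all anticodons, 18-nt reads numbered 87851 in BCP and 96517 in UNM, although the BCP list holds more reads. TCC fragments held 18.6% of all 18-nt reads in BCP (18.3 to 18.9) and 21.6% in UNM (21.3 to 21.8), so most of this fall was shared with other fragments of that length. The CT 18-nt fragment had 11664 reads in BCP and 15717 in UNM, 0.235% and 2.29% of reads, 9.73-fold lower in BCP (9.50 to 9.97). The TT 18-nt fragment had 4243 reads in BCP and 4959 in UNM, 8.44-fold lower (8.10 to 8.79), and the TC 18-nt fragment had 264 and 139, 3.80-fold lower. The 19-nt step, longer by a single T, was less different, at 2.73-fold lower for CT and 1.45-fold lower for TT, and it was 2.53-fold higher for TC (1.75 to 3.79). The 19-nt and 18-nt fragments of CT were thus close in BCP (10076 and 11664 reads) and far apart in UNM (3805 and 15717 reads). The 18-nt step was not the largest fall in its series. The CT fragments of 14 nt (65 reads in BCP and 600 in UNM) and 17 nt (2103 and 3080) were 66.7-fold and 10.6-fold lower. Those of 13, 15 and 20 nt were 12.1-fold, 13.0-fold and 16.7-fold lower. For TT the 20-nt fragment (25 and 39 reads) was 11.3-fold lower, more than its 18-nt one. The fall was smaller at 16 nt for CT, 4.01-fold, and at 14 nt for TT, 2.22-fold. At 13 nt the TT ratio was 1.07 (0.88 to 1.32).

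Within each series, the 26-nt step had the highest ratio of BCP over UNM. These steps are also the largest rises by the naming rule. That rule keeps only the most abundant sequence of those with the same start, so it could not name more than 1 per series. Across series, some TT steps at other lengths rose more than the CT 26-nt fragment, such as 38.8-fold at 31 nt. Others rose less, such as 17.8-fold at 32 nt. The TT 26-nt fragment had 65355 reads in BCP and 169 in UNM, 1.32% and 0.0246% of reads, 53.6-fold higher in BCP (46.1 to 62.7). The CT 26-nt fragment had 49903 reads in BCP and 337 in UNM, 20.5-fold higher (18.4 to 22.9), and the TC 26-nt fragment had 1646 and 3, 76.0-fold higher (25.95 to 369). The neighbouring lengths were much rarer. In BCP the CT series had 1941 reads at 25 nt and 556 at 27 nt, and the TT series had 3080 and 317. Set against the 18-nt fragment of the same series, the 26-nt fragment had 4.28 times its reads in BCP and 0.0214 times in UNM for CT, 15.4 and 0.0341 times for TT, and 6.23 and 0.0216 times for TC.

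Fragments that end at the anticodon were also higher in BCP, with smaller ratios for CT than for TT. Reads of 32 and 33 nt rose more over all anticodons, so the TCC part of them was lower in BCP. Of all 32-nt reads, TCC fragments held 7.37% in BCP and 46.7% in UNM. At 33 nt they held 4.65% in BCP and 8.91% in UNM, and at 34 nt 23.8% and 21.7%. The 32-nt fragment had 28401 reads in BCP and 1420 in UNM for CT, 2.77-fold higher (2.63 to 2.92), and 32153 and 250 for TT, 17.8-fold higher (15.7 to 20.3). The 34-nt fragment had 24212 reads in BCP and 608 in UNM for CT, 5.51-fold higher (5.09 to 5.99), and 22977 and 141 for TT, 22.6-fold higher (19.1 to 26.8). For TC these 2 steps had 1261 and 880 reads in BCP and 24 and 8 in UNM, 7.28-fold and 15.2-fold higher. Reads that start at base 1 and end on the 2 bases before the anticodon held 27.7% of TCC reads in BCP and 5.80% in UNM, and those that end inside it 14.8% in BCP and 10.3% in UNM.

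The 35-nt step, which ends after the second anticodon base, was not listed in BCP for CT and TT. In UNM it had 4.75 times the reads of the 34-nt fragment for CT (2885 and 608), 4.44 times for TT (626 and 141) and 4.38 times for TC (35 and 8). In BCP the TC series had 735 reads at 35 nt and 880 at 34 nt, a ratio of 0.835, while those of CT and TT had 24212 and 22977 reads at 34 nt and no entry at 35 nt. The BCP list does hold 268 sequences of 35 nt with 429561 reads over all anticodons. The 36-nt fragment was listed in UNM, BCP and TCP for TC, and in none of the 3 lists for CT and TT. Whether reads of 35 and 36 nt were left out of the lists for CT and TT was not tested, so the shares of fragments of 35 nt or more are uncertain for these series. Of 34 members with at least 50 UNM reads, the BCP list lacks 2, both of them these 35-nt fragments, and it holds all 32 shorter ones.

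The 3 variants differed in how their totals compared between the stages. The CT family, the sequences with its first 13 bases, held 3.01% of BCP reads (2.99 to 3.02) and 4.51% of UNM reads (4.46 to 4.56), 1.498-fold lower in BCP (1.48 to 1.52). The TT family held 3.36% of BCP reads (3.35 to 3.38) and 1.45% of UNM reads (1.43 to 1.48), 2.31-fold higher (2.27 to 2.36). The TC family held 0.127% of BCP reads and 0.0390% of UNM reads, 3.26-fold higher (2.88 to 3.70). Of the CT and TT fragments of 13 to 40 nt together, TT thus held 52.8% in BCP (52.6 to 52.98) and 24.4% in UNM (23.98 to 24.8). This range includes the 35-nt step, which BCP does not list for CT and TT.

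This balance depended on the length compared. At 18 nt the TT share was 26.7% in BCP (25.99 to 27.4) and 24.0% in UNM (23.4 to 24.6), the closest values among the abundant steps. At 19 nt it was 36.3% in BCP (35.5 to 37.1) and 23.3% in UNM (22.1 to 24.5). At 26 nt it was 56.7% in BCP (56.4 to 57.0) and 33.4% in UNM (29.3 to 37.7). At 32 nt it was 53.1% in BCP (52.7 to 53.5) and 14.97% in UNM (13.3 to 16.8), and at 34 nt 48.7% in BCP (48.2 to 49.1) and 18.8% in UNM (16.1 to 21.8). The shortest fragments also stood apart, with a TT share at 14 nt of 91.7% in BCP (89.5 to 93.5) and 26.8% in UNM (23.8 to 30.003), from 716 of 781 and 220 of 820 reads. Single lengths went against the general level, as at 30 nt in BCP, where TT held 10.1% (8.73 to 11.6) between 52.5% at 29 nt and 73.2% at 31 nt.

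TCC fragments from the 3′ side were scarce in both stages. Reads that start at or past the last anticodon base held 0.188% of TCC reads in BCP (0.173 to 0.203) and 0.0478% in UNM (0.0292 to 0.0738), 621 and 20 reads. The most frequent such start was base 39, with 396 reads in BCP and 6 in UNM. Starts at bases 2 to 5, which lack the first 1 to 4 bases of the tRNA, held 2.08% in BCP and 1.39% in UNM. The third of the largest falls by the naming rule was one of these, a 16-nt fragment from base 2 of the TT variant with 121 reads in BCP and 88 in UNM, 5.25-fold lower (3.94 to 6.97).

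Most CCC reads came from the 3′ side of the molecule. The 5′ and 3′ fragments that show this are printed with the first anticodon base in capitals for the 5′ fragment, and with bases 48 and 62 in capitals for the 3′ fragments, which start at base 36.
CCC 5′, 33 nt: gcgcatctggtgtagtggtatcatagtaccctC
CCC 3′, first variant, 35 nt: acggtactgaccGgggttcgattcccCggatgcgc
CCC 3′, second variant, 35 nt: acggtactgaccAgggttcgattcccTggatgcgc
The joined CCC tRNA is 71 bases long, again the length of all 8 annotated genes, with the anticodon at bases 33 to 35. The second variant has G48A and C62T. These bases face each other in the T stem, so the second variant keeps the base pair, and here the pairing was not used for the join. Reads that start at or past the last anticodon base held 60.04% of CCC reads in BCP (58.6 to 61.4) and 73.7% in UNM (69.8 to 77.3), 2940 and 412 reads. Most began on 3 adjacent bases, from the last anticodon base to 2 bases past it, with 57.3% of CCC reads in BCP and 64.04% in UNM. Fragments that start at base 1 held 22.9% in BCP (21.7 to 24.1) and 6.62% in UNM (4.70 to 9.01).

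The CCC reads were longer in BCP as well. So were the listed fragments outside TCC and CCC, where those of at least 30 nt held 51.1% in BCP and 3.20% in UNM. Fragments of at least 30 nt made up 49.9% of CCC reads in BCP (48.5 to 51.4) and 24.2% in UNM (20.7 to 27.9), and those of at most 20 nt 40.5% in BCP and 71.6% in UNM. On the 3′ side this showed as a later end. The 35-nt fragment of the first variant, which reaches base 70, had 554 reads in BCP and 7 in UNM, 10.96-fold higher (5.28 to 27.4). The 19-nt fragment with the same start, which ends in the T loop at base 54, had 34 and 47, 9.98-fold lower (6.29 to 16.0). For the second variant the 35-nt fragment had 207 and 3 reads, 9.56-fold higher (3.22 to 46.7), while its 19-nt fragment had 252 and 22, a ratio of 1.59 (1.02 to 2.58) that did not reach 2-fold. Fragments that fit only the first variant held 30.7% of CCC reads in BCP and 46.5% in UNM, and those that fit only the second 31.7% in BCP and 27.7% in UNM.

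On the 5′ side of CCC there was no step at 26 nt, which had 2 reads in BCP and 0 in UNM. The D stem of CCC ends at base 24, so the end that matches the 26-nt step of TCC is at 25 nt. It had 1 read in BCP and 0 in UNM. The 15-nt fragment led, with 364 reads in BCP and 13 in UNM, 3.88-fold higher (2.24 to 7.35). The 33-nt fragment, which ends on the first anticodon base like the 34-nt step of TCC, had 304 and 1 reads, 42.1-fold higher with a wide interval (7.50 to 1668). The 19-nt fragment had 166 and 7 reads, 3.28-fold higher (1.56 to 8.30).

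The CCA tail that mature tRNAs carry was not seen in full. No member continued past the last base of a joined tRNA with CC or CCA. The mapping reference is not given, so whether reads with the full tail could have been listed was not tested. Ends with 1 further C had 41 reads in BCP and 5 in UNM for TCC, and 29 and 7 for CCC. Among CCC fragments, ends 1 base before the last base held 24.4% of reads in BCP (23.2 to 25.6) and 8.41% in UNM (6.24 to 11.02), and ends at the last base 7.13% and 9.12%. A 39-nt CCC fragment went past the last base with other letters, shown in capitals, and is among the largest rises by the naming rule.
CCC 3′, 39 nt: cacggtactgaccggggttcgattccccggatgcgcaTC
It had 194 reads in BCP and 0 in UNM, 8.96-fold higher with UNM set to 3 counts, and the lower end of the interval was 7.21. However, under no anticodon does UNM list any fragment of 39 nt, and BCP lists none of 40 nt.

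The comparison of individual sequences required 50 reads over both stages, and a sequence counted as higher or lower when its share differed at least 2-fold with an interval that excludes 1. Of all 1794 sequences tested, 68.2% were higher in BCP and 17.2% lower, so a higher call is the usual case. Of 96 TCC sequences tested of 499, 62 were higher, 22 lower and 12 neither, with a median log2 ratio of 1.88 against 2.01 over all tested. Of 24 CCC sequences tested of 392, 10 were higher, 2 lower and 12 neither, with a median of 1.101. After BCP reads were thinned at random to the depth of UNM, 29 of 54 tested TCC sequences and 2 of 6 tested CCC sequences were higher, against 56.3% of all tested. The 22 lower TCC sequences were mostly short, as 20 of 32 tested of at most 20 nt were lower, against 32.7% of all tested sequences of that size, and 6 of 32 were higher, against 44.2%. Among TCC sequences of 21 to 29 nt, the 32 tested comprised 27 higher ones and 0 lower ones, against 84.8% and 4.75% of all tested, and of the 32 of at least 30 nt 29 were higher, against 92.5%. The 2 longer lower ones are the 35-nt fragments of CT and TT described above. By family, 11 of 23 CT sequences were higher and 9 lower, 12 of 22 TT sequences were higher and 6 lower, and 9 of 10 TC sequences were higher and 1 lower. Nested fragments share most of their bases and are not independent of each other. Of the tested sequences, 10 TCC and 2 CCC ones had no read in UNM and 2 TCC ones none in BCP, and their calls follow from the minimum alone.

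The TCP list held the same nested series. Of the 23 lengths from 13 to 35 nt, the CT series was listed in full in UNM, at 22 lengths in BCP and in full in TCP. The TT series was listed in full in UNM, at 22 lengths in BCP and at 22 in TCP, where 21 nt is missing. The TC series was listed at 14, 22 and 18 lengths in the same order of stages. The 35-nt fragments of CT and TT that BCP lacks are listed in TCP, as are those of 40 nt. The steps of 18, 19, 26, 32 and 34 nt are present in TCP in all 3 series. Of the TCC sequences of BCP, 213 of 438 were listed in TCP (48.6%, 43.9 to 53.4), and of those of UNM 126 of 168 (75.0%, 67.7 to 81.3). Of the CCC sequences, 83 of 345 of BCP (24.1%, 19.6 to 28.9) and 52 of 125 of UNM (41.6%, 32.9 to 50.8) were listed. For the other fragments of the series it was 42.1% in BCP and 54.6% in UNM. Counting only sequences of at least 10 BCP reads, 84.8% of TCC sequences (78.3 to 89.9), 55.2% of CCC sequences (41.5 to 68.3) and 81.5% of the other fragments (80.1 to 82.7) were listed in TCP. With no minimum and at this one the CCC interval lay below the other 2, but in the following cases the CCC interval overlapped both. From 50 BCP reads on, 96.6% of TCC sequences (90.5 to 99.3), 18 of 20 CCC sequences (90%, 68.3 to 98.8) and 91.5% of the other fragments (90.01 to 92.9) were listed. From 10 UNM reads on, 96.6% of TCC sequences (88.3 to 99.6), 13 of 15 CCC sequences (86.7%, 59.5 to 98.3) and 85.3% of the other fragments (82.9 to 87.5) were listed. There the TCC interval lay above that of the other fragments. By distinct sequences, fragments of at least 30 nt made up 24.4% of the TCC sequences in UNM, 28.995% in BCP and 37.3% in TCP, and 25.6%, 25.5% and 40.0% of the CCC sequences. For CCC the UNM and BCP values were thus nearly equal. Over all listed sequences this share was lowest in UNM and highest in TCP, as for TCC, so that order is not particular to TCC.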

How the data were processed

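The labels give the RNA size as 13 to 40 nt (UNM) or 13 to 41 nt (BCP, TCP), and the lists hold sequences from 10 nt. The authors deposited, per the file headers, the anticodon, the sequence and a count for each distinct tRNA-derived sequence. In the deposited UNM and BCP lists this count is whole and was not normalized. The other numbers deposited by the authors, for TCP, lie between 1 and 28 over 8633 sequences and were not taken as reads. Per the submitters' processing notes Bowtie 1.1.2 was used. Its reference and settings: not given in the sources used here.

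Sequences were joined across lists by exact identity (Python 3.11.15, pandas 2.3.3, scipy 1.17.1). Shares have Clopper-Pearson intervals and ratios exact conditional binomial ones, and a 0 was set to 3 counts for a ratio. A family is the members with the same first 13 nt. Mature tRNAs were joined from members by overlaps of at least 9 bases, from the 5′ families of at least 1000 reads that carry the conserved tRNA bases of positions 8 to 14 to 3′ pieces whose 7 bases before the last pair with the first 7, and members were placed on them by exact match. This step was added after the data were seen. It left 34 TCC and 23 CCC sequences unplaced. The named sequences are, per anticodon, the 5 most abundant, the 3 largest rises and falls among called ones, reduced to the most abundant per first 13 nt, and the 2 largest families. The 1 sequence labelled CGG in BCP and CCC elsewhere was counted under each list's own label. The calls compare the reads of 2 libraries by counting error, not the stages, for which there are no replicates. Calls were tested on simulated data. The members and lists were chosen with earlier results of these data known.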

Additional observations from a re-analysis of the deposited data

How the results depend on the processing

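Of 58 results recomputed under another setting, 33 stayed within their interval or, for counts, near the value reported, 23 moved and 2 reversed. The share ratios of both anticodons are small and depend on the base. As shares of tRNA-Gly reads only, the log2 ratio of BCP over UNM was -0.31 for TCC and -0.16 for CCC, against 0.13 and 0.28 over all reads, since GCC fragments enter that base. Without tRNA-Asp fragments in the total it was 0.76 and 0.91, and without the most abundant sequence of each anticodon 0.73 and 0.094, the last with an interval that includes 0. With sequences of at most 33 nt it was 0.25 and 0.11, with at least 10 reads in UNM or BCP 0.56 for CCC, and without sequences whose anticodon differs between lists 0.15 for TCC. The share of reads of at least 30 nt stayed higher in BCP throughout. With at most 33 nt it was 37.4% in BCP and 6.97% in UNM for TCC, and 19.1% and 5.15% for CCC. Without the most abundant sequences it was 48.4% and 26.6% for TCC and 43.6% in BCP for CCC, and with at least 10 reads 53.6% in BCP for CCC. With BCP thinned to the UNM total, 29 TCC sequences were higher of 54 tested, and 2 CCC sequences were higher and 1 lower of 6 tested. Without tRNA-Asp fragments 17 CCC sequences were higher. At 20 and 100 summed reads, 6 and 0 CCC sequences were lower. With at least 10 reads, 173 BCP members were listed in TCP in place of 296. Beyond these settings' own construction, the cause was not tested. No paired analysis was possible because each stage has a single library. Depth limits the CCC values of UNM, which rest on 559 reads, and a count of 0 allows a share of up to 0.000437% in UNM and 6.05e-05% in BCP.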

Other observations

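The first base of the fragments followed their place on the tRNA. Of TCC reads, 98.5% began with G in BCP (98.4 to 98.5) and 98.8% in UNM (98.7 to 98.9). CCC reads were spread over the bases, with A at 35.4% in BCP and 26.7% in UNM, C at 33.96% and 44.5%, G at 26.4% and 15.7%, and T at 4.21% and 13.1%. The CCC family that starts at base 8 had 42 reads in BCP and 53 in UNM, and its 15-nt fragment, the other CCC sequence called lower, had 38 and 31 reads, 5.89-fold lower in BCP (3.54 to 9.72). The 13-nt fragment of this family, with 14 reads in UNM, is the sequence labelled CGG in BCP, so the BCP total leaves it out.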
